A study of Mus musculus with 12 samples.

Results

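The 38 genes described here encode the machinery of synaptic and neuronal transmission: vesicle fusion proteins, vesicle proteins, active zone scaffolds, transmitter enzymes and transporters, receptors, adhesion and scaffold proteins, and the axon cytoskeleton. They were found by gene symbol among the 18996 genes of the count table, and they were selected on measured values of these same mice, so their levels and group differences are a description, and the calls given for single members come from the fit over all genes and are no independent evidence. The mice were BALB/c animals aged 5 to 7 weeks, whose T12 to L2 laminae were the surgical site, and tissue was taken 7 days after surgery. The study as a whole included both sexes, and the sex of each of these mice is not given in the sample labels used here. The No operation group (4 mice) gave paraspinal soft tissue without surgery, the SHAM group (4 mice) had paraspinal soft tissue removed with the lamina kept, and the Laminectomy group (4 mice) had the lamina cut out as well. Tissue of both operated groups was labelled as paraspinal soft and scar tissue, so surgery and a change of tissue go together in every comparison with No operation and cannot be told apart. RNA was sequenced in bulk, and total counts ran from 16802989 to 18077868 per mouse. Levels are given as CPM, the counts of a gene per 1000000 counts of its library, with library sizes scaled by the trimmed mean of M-values method (TMM). A count of 0 is compatible with up to 3 counts, which is between 0.154 and 0.210 CPM depending on the mouse, for counting error alone.

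At a chemical synapse, a vesicle filled with transmitter is docked at the active zone, and SNARE proteins pull its membrane onto the cell membrane when calcium binds synaptotagmin. The transmitter then opens receptors that scaffold proteins hold in place on the receiving cell. In paraspinal muscle the endings of motor axons form neuromuscular junctions, while the cell bodies of those axons lie in the spinal cord, so that most neuronal mRNA is made outside the muscle.

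The labelled tissue was checked against marker genes, and the most abundant gene of a list is the one with the highest mean over the 12 mice, which for most lists was not the highest in every mouse. Skeletal muscle markers (11 of 11 detected, Myh4, a fast myosin heavy chain, the most abundant) summed to 110000, 103000, 125000 and 145000 CPM across No operation mice 1 to 4, 2550, 6660, 9230 and 10200 CPM in SHAM mice 1 to 4, and 3310, 14400, 12200 and 11000 CPM in Laminectomy mice 1 to 4. Myh4 led in No operation mice 2, 3 and 4, while the alpha-actin gene Acta1 was above it in No operation mouse 1 and in all 8 operated mice. They were high in every No operation mouse and lower in every operated mouse, with no overlap. Macrophage markers (6 of 6 detected, Lyz2, lysozyme, the most abundant) summed to 1510, 1130, 878 and 572 CPM for the 4 No operation mice, 6960, 4590, 3950 and 4760 CPM in the 4 SHAM mice, and 5160, 3160, 3530 and 3040 CPM in the 4 Laminectomy mice. They were higher in all 8 operated mice than in any No operation mouse.

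The libraries of Laminectomy mice 2 and 3 stood apart from the other 10. The sources used here do not say whether these mice were among those the study took on to its own comparisons, nor whether tissue beneath the lamina was sampled in them. The 38 members summed to 155, 162, 175 and 178 CPM in No operation mice 1 to 4, 142, 181, 143 and 138 CPM in SHAM mice 1 to 4, and 147, 606, 267 and 167 CPM in Laminectomy mice 1 to 4. Laminectomy mice 2 and 3 were above every other mouse, and Laminectomy mice 1 and 4 lay among the rest. The mean summed level was 167 ± 10.7 CPM (SD, n = 4) in No operation, 151 ± 20.2 CPM (SD, n = 4) in SHAM and 297 ± 213 CPM (SD, n = 4) in Laminectomy. With mice 2 and 3 left out, a choice made after seeing the data, the Laminectomy mean was 157 ± 14.0 CPM (SD, n = 2). The ratio of the Laminectomy mean to the No operation mean was 1.77 with all mice, 1.16 without Laminectomy mouse 2 and 0.936 without mice 2 and 3; to the SHAM mean it was 1.96, 1.28 and 1.04. The SHAM mean was 0.902 of the No operation mean, but 1.08 times it without TMM and 1.17 times it without Vamp2, so its direction rests on the scaling and on that 1 gene. The ratio of Laminectomy to No operation was 2.21 without TMM and 3.12 without Vamp2 with all mice, and 1.17 and 1.32 with mice 2 and 3 left out as well, so there too the direction turned. Vamp2 alone made up 55.3% of the summed level in No operation mouse 1 and 10% in Laminectomy mouse 2.

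**Figure D1:**
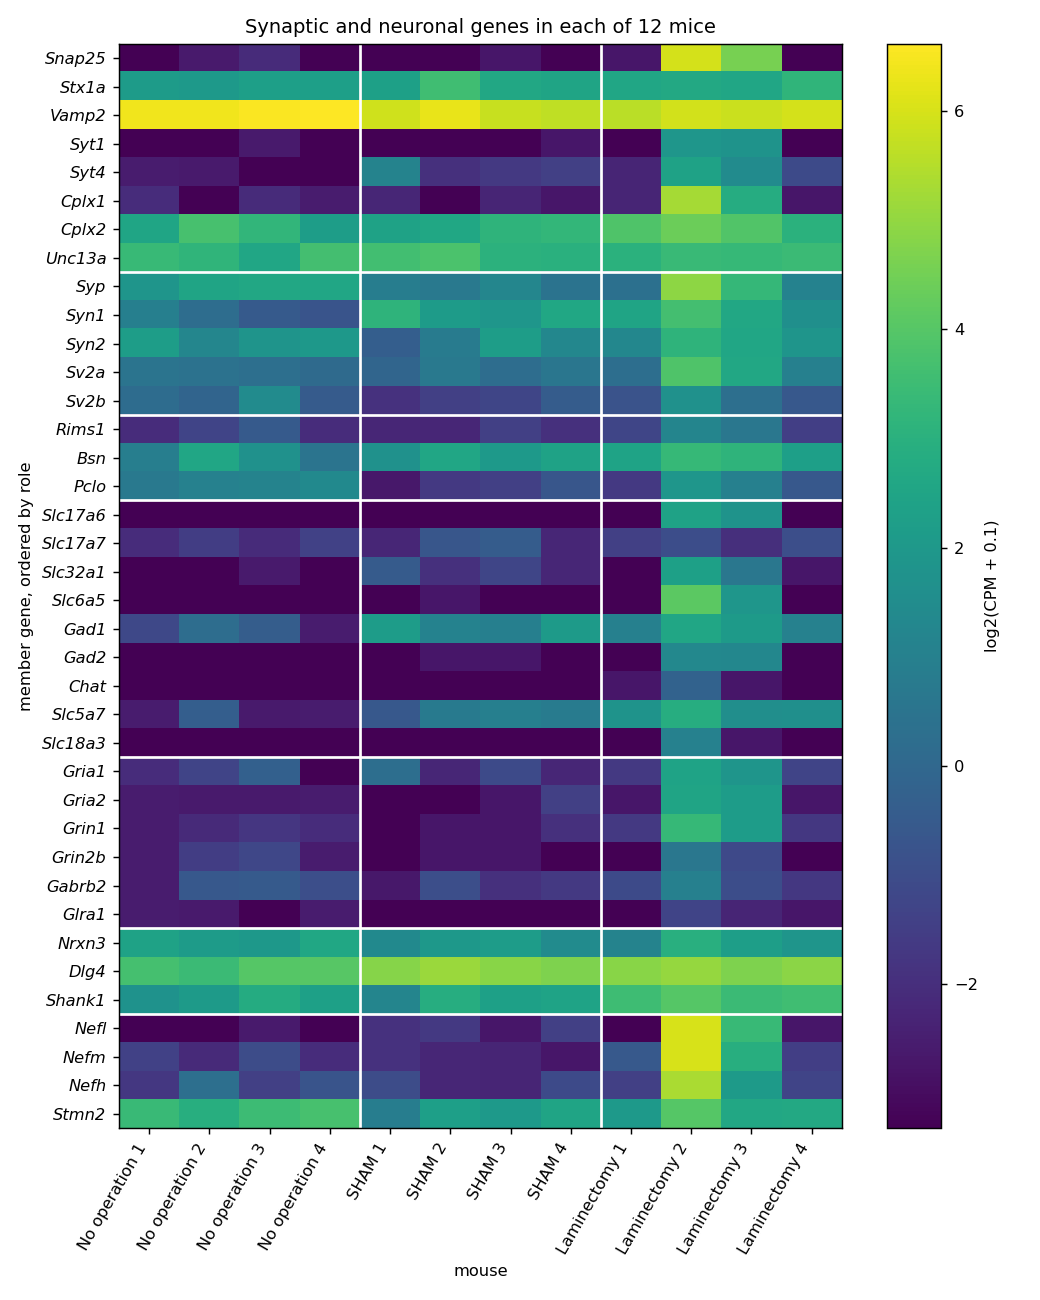
Each row is a member gene, ordered by role with white lines between roles, each column is a mouse, and colour gives log2(CPM + 0.1). Laminectomy mice 2 and 3 are bright in rows that are dark in the other 10 mice, such as Snap25 at 63.1 and 23.7 CPM, while Vamp2 and Dlg4 are bright in all 12.

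Of the 38 members, 12 were at 1 CPM or more in Laminectomy mice 2 and 3 and under 1 CPM in each of the other 10 mice: Snap25, Syt1, Cplx1, Rims1, Slc17a6, Slc32a1, Slc6a5, Gad2, Gria2, Grin1, Nefl and Nefm. Over all 18996 genes 142 had that pattern, or 0.748%; the members were chosen on the same values, so nothing is read from the difference. In bulk tissue, a larger number of cells of a type and more RNA per cell cannot be told apart, and likewise fewer cells and less RNA per cell. The other 26 members did not have this pattern, and many of them were measured in all 12 mice.

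Among the fusion proteins, Snap25, the SNARE of the nerve terminal membrane, was at 0, 0.0630, 0.133 and 0 CPM across No operation mice 1 to 4, 0, 0, 0.0530 and 0 CPM in SHAM mice 1 to 4, and 0.0529, 63.1, 23.7 and 0 CPM in Laminectomy mice 1 to 4. Cplx1, a complexin that clamps the SNARE bundle, was at 0.138, 0, 0.133 and 0.0701 CPM for the 4 No operation mice, 0.112, 0, 0.106 and 0.0534 CPM in the 4 SHAM mice, and 0.106, 38.2, 6.94 and 0.0521 CPM in the 4 Laminectomy mice. Syt1, the calcium sensor of fast release, was at 0, 0, 0.0666 and 0 CPM across No operation mice 1 to 4, 0, 0, 0 and 0.0534 CPM in SHAM mice 1 to 4, and 0, 3.60, 3.37 and 0 CPM in Laminectomy mice 1 to 4. All 3 were at or near 0 in 10 mice and well above it in Laminectomy mice 2 and 3, so within the Laminectomy group the mice fell apart while No operation and SHAM overlapped. Syt4, a synaptotagmin with weak calcium binding, was at 0.0689, 0.0630, 0 and 0 CPM for the 4 No operation mice, 2.08, 0.160, 0.212 and 0.267 CPM in the 4 SHAM mice, and 0.106, 5.24, 2.69 and 0.365 CPM in the 4 Laminectomy mice. Laminectomy mice 2 and 3 were again the highest, but SHAM mouse 1 came close behind mouse 3.

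The other fusion genes were present in every mouse. Vamp2, the vesicle SNARE that is also used in the glucose transporter vesicles of muscle, was at 85.7, 85.3, 93.3 and 98.1 CPM across No operation mice 1 to 4, 60.1, 78.0, 55.5 and 50.5 CPM in SHAM mice 1 to 4, and 47.5, 60.8, 56.8 and 63.3 CPM in Laminectomy mice 1 to 4. Every operated mouse was below every No operation mouse, and SHAM and Laminectomy overlapped. Stx1a, the syntaxin partner of Snap25, was at 4.34, 4.03, 4.80 and 4.77 CPM for the 4 No operation mice, 4.95, 11.7, 6.14 and 5.55 CPM in the 4 SHAM mice, and 5.77, 6.22, 5.85 and 9.07 CPM in the 4 Laminectomy mice. SHAM mouse 2 and Laminectomy mouse 4 were the highest, and each operated mouse was above each No operation mouse. Cplx2, a related complexin, was at 5.65, 13.0, 9.13 and 4.49 CPM across No operation mice 1 to 4, 5.17, 5.99, 8.74 and 9.40 CPM in SHAM mice 1 to 4, and 14.8, 20.7, 15.2 and 8.08 CPM in Laminectomy mice 1 to 4. Laminectomy mice 1, 2 and 3 were the highest of the 12, while mouse 4 lay among the other groups. Unc13a, which primes vesicles, was at 10.2, 9.06, 5.86 and 12.4 CPM for the 4 No operation mice, 12.1, 13.8, 8.26 and 7.79 CPM in the 4 SHAM mice, and 8.05, 10.7, 10.1 and 10.9 CPM in the 4 Laminectomy mice. Its 3 groups overlapped throughout. Per kilobase of exon, Vamp2 had the highest mean of the fusion genes in No operation, 23.8 CPM per kilobase against 1.68 for Stx1a and 1.64 for Cplx2. In Laminectomy mouse 2, Cplx1 at 17.4 CPM per kilobase stood beside Vamp2 at 16.0.

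Among vesicle proteins, Syp, the membrane protein synaptophysin, was at 3.58, 5.42, 6.13 and 5.82 CPM across No operation mice 1 to 4, 1.74, 1.5, 2.28 and 1.28 CPM in SHAM mice 1 to 4, and 1.16, 30.0, 9.79 and 2.03 CPM in Laminectomy mice 1 to 4. It was lower in all SHAM mice and in Laminectomy mice 1 and 4 than in any No operation mouse, and highest in Laminectomy mice 2 and 3. The log2 difference of Laminectomy from No operation was 1.04 with all mice and -1.70 without Laminectomy mice 2 and 3, so its direction rests on those libraries. Syn1, a synapsin that tethers vesicles to actin, was at 1.86, 1.07, 0.599 and 0.491 CPM for the 4 No operation mice, 8.65, 4.23, 3.60 and 5.93 CPM in the 4 SHAM mice, and 5.56, 12.3, 6.11 and 2.97 CPM in the 4 Laminectomy mice. Each operated mouse was above each No operation mouse. Syn2, its paralogue, was at 4.48, 2.27, 3.40 and 3.79 CPM across No operation mice 1 to 4, 0.674, 1.66, 4.55 and 2.35 CPM in SHAM mice 1 to 4, and 2.33, 8.79, 5.75 and 3.49 CPM in Laminectomy mice 1 to 4. The groups overlapped, with SHAM mouse 1 the lowest and Laminectomy mouse 2 the highest. Sv2a, a vesicle glycoprotein, was at 1.31, 1.26, 1.13 and 0.981 CPM for the 4 No operation mice, 0.843, 1.5, 1.06 and 1.39 CPM in the 4 SHAM mice, and 1.11, 14.5, 6.11 and 1.93 CPM in the 4 Laminectomy mice. Only Laminectomy mice 2 and 3 were clear of the rest. Sv2b, a related glycoprotein, was at 1.03, 0.819, 2.66 and 0.631 CPM across No operation mice 1 to 4, 0.169, 0.267, 0.318 and 0.641 CPM in SHAM mice 1 to 4, and 0.476, 3.14, 1.14 and 0.573 CPM in Laminectomy mice 1 to 4. SHAM mice were the lowest apart from SHAM mouse 4, which lay just above No operation mouse 4, and Laminectomy mouse 2 and No operation mouse 3 were the highest.

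At the active zone, Bsn (bassoon), a scaffold that keeps vesicles near release sites, was at 1.79, 5.86, 3.20 and 1.33 CPM for the 4 No operation mice, 3.15, 5.83, 4.02 and 5.18 CPM in the 4 SHAM mice, and 5.40, 9.87, 8.81 and 4.74 CPM in the 4 Laminectomy mice. Laminectomy mice 2 and 3 were the highest and the other mice overlapped. Pclo (piccolo), the related scaffold, was at 1.52, 1.95, 2.06 and 2.52 CPM across No operation mice 1 to 4, 0.0562, 0.214, 0.265 and 0.534 CPM in SHAM mice 1 to 4, and 0.212, 3.60, 1.92 and 0.573 CPM in Laminectomy mice 1 to 4. No operation mice were high, SHAM mice and Laminectomy mice 1 and 4 were low, and Laminectomy mice 2 and 3 were back at the No operation level or above. Rims1, which ties calcium channels to vesicles, was at 0.138, 0.315, 0.599 and 0.140 CPM for the 4 No operation mice, 0.112, 0.107, 0.265 and 0.160 CPM in the 4 SHAM mice, and 0.318, 2.21, 1.45 and 0.261 CPM in the 4 Laminectomy mice. It was low in all mice but Laminectomy mice 2 and 3.

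Among the transmitter genes, Slc17a6, which loads glutamate into vesicles, was at 0, 0, 0 and 0 CPM across No operation mice 1 to 4, 0, 0, 0 and 0 CPM in SHAM mice 1 to 4, and 0, 5.24, 3.37 and 0 CPM in Laminectomy mice 1 to 4. Not a single count was found in 10 mice. Slc17a7, the other main vesicular glutamate transporter, ranged from 0.107 to 0.635 CPM over all 12 mice, with no mouse standing out. Slc6a5, the glycine transporter of glycinergic terminals, was at 0, 0, 0 and 0 CPM for the 4 No operation mice, 0, 0.0535, 0 and 0 CPM in the 4 SHAM mice, and 0, 17.3, 3.68 and 0 CPM in the 4 Laminectomy mice. Slc32a1, which loads GABA and glycine into vesicles, was at 0, 0, 0.0666 and 0 CPM across No operation mice 1 to 4, 0.618, 0.160, 0.318 and 0.107 CPM in SHAM mice 1 to 4, and 0, 4.88, 1.45 and 0.0521 CPM in Laminectomy mice 1 to 4. Both were highest in Laminectomy mice 2 and 3, while Slc32a1 also had counts in every SHAM mouse.

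Of the enzymes that make GABA, Gad2 was at 0, 0, 0 and 0 CPM for the 4 No operation mice, 0, 0.0535, 0.0530 and 0 CPM in the 4 SHAM mice, and 0, 2.36, 2.33 and 0 CPM in the 4 Laminectomy mice. Gad1 was at 0.345, 1.07, 0.666 and 0.0701 CPM across No operation mice 1 to 4, 4.38, 2.03, 1.85 and 4.16 CPM in SHAM mice 1 to 4, and 1.91, 5.76, 4.20 and 1.98 CPM in Laminectomy mice 1 to 4. Gad2 was near 0 outside Laminectomy mice 2 and 3, whereas Gad1 was higher in every operated mouse than in any No operation mouse. Slc5a7, the choline transporter of cholinergic terminals, was at 0.0689, 0.693, 0.0666 and 0.0701 CPM for the 4 No operation mice, 0.562, 1.60, 1.85 and 1.65 CPM in the 4 SHAM mice, and 3.34, 7.25, 2.95 and 2.97 CPM in the 4 Laminectomy mice. Laminectomy mice were all above SHAM mice, and SHAM mouse 1 was below No operation mouse 2. The other cholinergic genes did not follow: Chat, which makes acetylcholine, ranged from 0 to 0.771 CPM and had 0 counts in 9 mice. Slc18a3, which loads acetylcholine into vesicles, ranged from 0 to 1.95 CPM and had 0 counts in 10 mice. The highest value of both was in Laminectomy mouse 2, and Laminectomy mouse 3 had 1 count of each.

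Among receptors, Gria1, a subunit of the AMPA glutamate receptor, was at 0.138, 0.315, 0.733 and 0 CPM across No operation mice 1 to 4, 1.12, 0.107, 0.371 and 0.107 CPM in SHAM mice 1 to 4, and 0.212, 5.30, 3.52 and 0.313 CPM in Laminectomy mice 1 to 4. Gria2, the subunit that limits its calcium flow, was at 0.0689, 0.0630, 0.0666 and 0.0701 CPM for the 4 No operation mice, 0, 0, 0.0530 and 0.267 CPM in the 4 SHAM mice, and 0.0529, 5.45, 4.46 and 0.0521 CPM in the 4 Laminectomy mice. Grin1, the obligatory subunit of NMDA receptors, was at 0.0689, 0.126, 0.200 and 0.140 CPM across No operation mice 1 to 4, 0, 0.0535, 0.0530 and 0.160 CPM in SHAM mice 1 to 4, and 0.212, 10.1, 4.35 and 0.209 CPM in Laminectomy mice 1 to 4. All 3 were highest in Laminectomy mice 2 and 3, and SHAM mouse 1 had the next level of Gria1. Grin2b, another NMDA subunit, ranged from 0 to 1.44 CPM, Gabrb2, a GABA-A receptor subunit, from 0.0562 to 1.90 CPM, and Glra1, a glycine receptor subunit, from 0 to 0.308 CPM. Laminectomy mouse 2 held the highest value of all 3.

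Adhesion and scaffold genes were present in all mice. Nrxn3, a presynaptic adhesion protein, was at 5.25, 4.32, 3.89 and 5.92 CPM for the 4 No operation mice, 2.55, 3.81, 4.37 and 2.67 CPM in the 4 SHAM mice, and 2.10, 7.52, 4.65 and 3.56 CPM in the 4 Laminectomy mice. The groups overlapped, with Laminectomy mouse 2 the highest and mouse 1 the lowest. Dlg4 (PSD-95), the scaffold under glutamate receptors, was at 12.7, 11, 15.8 and 16.5 CPM across No operation mice 1 to 4, 28.3, 35.0, 28.6 and 26.0 CPM in SHAM mice 1 to 4, and 28.9, 33.1, 26.0 and 29.6 CPM in Laminectomy mice 1 to 4. All operated mice were above all No operation mice, and SHAM and Laminectomy overlapped. Shank1, a scaffold that binds the Dlg4 complex, was at 3.24, 4.22, 6.86 and 4.98 CPM for the 4 No operation mice, 2.19, 7.17, 4.87 and 5.28 CPM in the 4 SHAM mice, and 11.5, 16.0, 11 and 11.9 CPM in the 4 Laminectomy mice. All 4 Laminectomy mice were above all SHAM and No operation mice, and the latter groups overlapped. Per kilobase of exon the mean of Dlg4 was 1.06 CPM in No operation, 2.22 in SHAM and 2.22 in Laminectomy, and that of Shank1 was 0.459, 0.464 and 1.2.

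In the axon cytoskeleton, Nefl, the light neurofilament chain, was at 0, 0, 0.0666 and 0 CPM across No operation mice 1 to 4, 0.169, 0.214, 0.0530 and 0.267 CPM in SHAM mice 1 to 4, and 0, 63.8, 10.4 and 0.0521 CPM in Laminectomy mice 1 to 4. Nefm, the medium chain, was at 0.276, 0.126, 0.400 and 0.140 CPM for the 4 No operation mice, 0.169, 0.107, 0.106 and 0.0534 CPM in the 4 SHAM mice, and 0.582, 65.0, 7.46 and 0.261 CPM in the 4 Laminectomy mice. Nefh, the heavy chain, was at 0.207, 1.13, 0.266 and 0.491 CPM across No operation mice 1 to 4, 0.393, 0.107, 0.106 and 0.374 CPM in SHAM mice 1 to 4, and 0.265, 41.3, 4.14 and 0.313 CPM in Laminectomy mice 1 to 4. Laminectomy mouse 2 was far above all mice for the 3 chains, with mouse 3 next. Nefl (chr14:68083863-68089095, + strand, GRCm38) lies within the span of Nefm (chr14:68082590-68124846, - strand), and their exons share 1108 bases in the GENCODE annotation, 32.8% of the exon length of Nefl and 19.2% of that of Nefm. The counting program's default settings do not use strand, and with them reads from that stretch could not be told apart between these genes. However, 10.2% of the table's values are not whole, which those defaults do not give, so the options used are not known and the levels of both genes are uncertain to that extent. Among the members only Cplx2, Unc13a and Nrxn3 had such values. Grin1 shares 13.5% of its exon length with an antisense gene that is also in the table, so the same doubt holds for it. Antisense genes that are not in the table used here overlap 24.9% of the exon length of Slc32a1, 16.8% of Syp and 14.5% of Syt4, and whether their reads were counted for these members is not known. Stmn2, a microtubule regulator of growing axons, was at 10.5, 7.43, 11.2 and 13.3 CPM for the 4 No operation mice, 1.74, 4.81, 3.92 and 5.50 CPM in the 4 SHAM mice, and 4.08, 15.8, 6.16 and 6.31 CPM in the 4 Laminectomy mice. No operation mice were above all SHAM mice, and Laminectomy mouse 2 was the highest of the 12. Per kilobase of exon in Laminectomy mouse 2, Nefl was at 18.9 CPM, Nefm at 11.2 CPM, Nefh at 10.3 CPM and Stmn2 at 2.83 CPM.

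The ratio of Laminectomy mouse 2 to mouse 3 varied among the members. It was 9.96 for Nefh (95% Clopper-Pearson interval 7.91 to 12.7, for counting error only). It was 8.72 for Nefm (7.33 to 10.4), 6.13 for Nefl (5.27 to 7.15) and 5.50 for Cplx1 (4.57 to 6.66). For the glycine transporter Slc6a5 it was 4.70 (3.63 to 6.16). Snap25 had an intermediate ratio of 2.66 (2.39 to 2.97), and Grin1 of 2.33 (1.79 to 3.04). At the other end, the ratio was 1.01 for Gad2 (0.658 to 1.57), 1.07 for Syt1 (0.752 to 1.52) and 1.22 for Gria2 (0.912 to 1.65). Slc17a6 was at 1.56 (1.13 to 2.16). Each ratio sets 1 mouse against 1 mouse, and the members given were picked by their values. Slc18a3 had 38 counts in mouse 2 and 1 in mouse 3, a ratio of 37.7 (6.37 to 1530), and Chat had 15 and 1, a ratio of 14.9 (2.29 to 627).

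**Figure D2:**
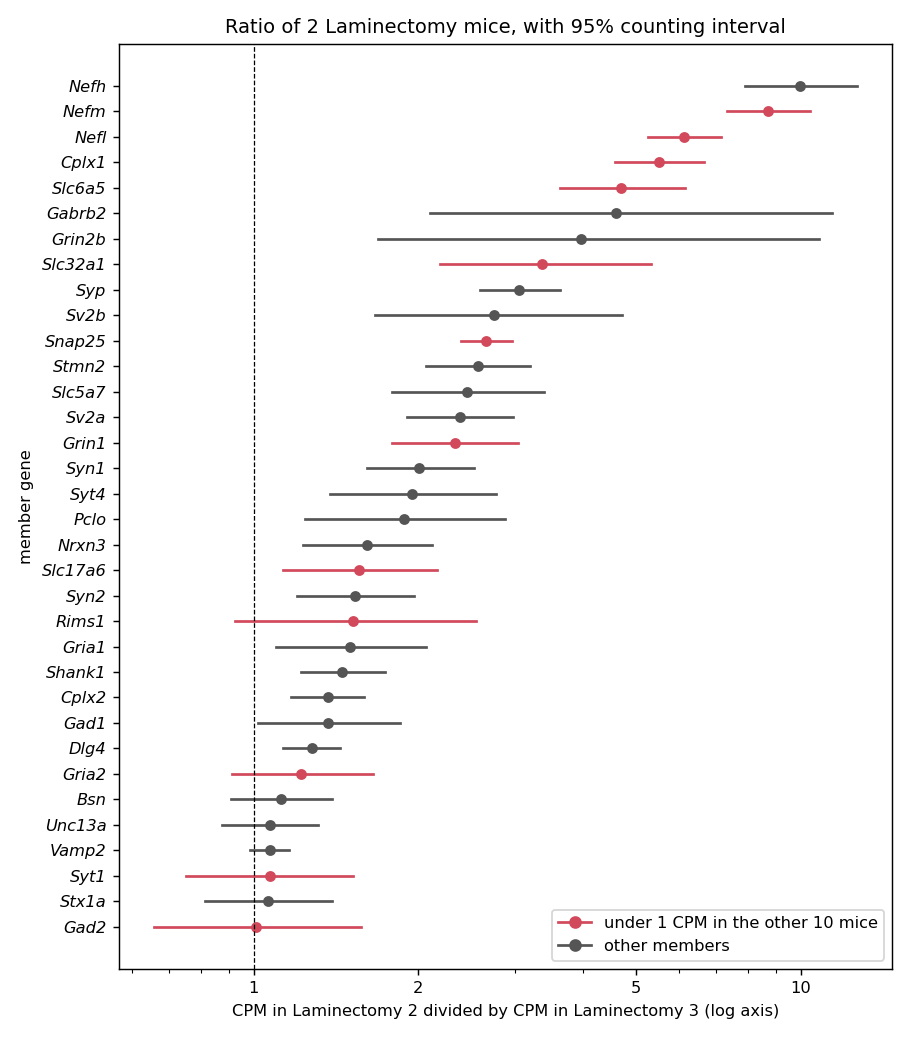
Points give CPM in Laminectomy mouse 2 divided by CPM in Laminectomy mouse 3 for members with at least 5 counts in mouse 3, on a log axis, and lines give the 95% counting interval. Red marks members at 1 CPM or more in both of these mice and under 1 CPM in the other 10 mice. Nefh (9.96), Nefm (8.72) and Nefl (6.13) sit at the top and Gad2 (1.01) at the bottom.

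Many, but not all, markers of glia of the central nervous system were high in the same mice. Of 8 astrocyte markers, 8 were detected and summed to 70.5, 117, 86.1 and 96.9 CPM across No operation mice 1 to 4, 20, 13.1, 63.7 and 13.7 CPM in SHAM mice 1 to 4, and 14.1, 172, 67.0 and 15.3 CPM in Laminectomy mice 1 to 4. The sum was highest in Laminectomy mouse 2, whereas mouse 3 lay below every No operation mouse. In both mice 5 of the 8 were above each of the other 10 mice, and 2 of the 8 were below each No operation mouse. These 2 were Aldh1l1, the most abundant over the 12 mice, at 51.6 to 64.7 CPM in No operation and 11.2 and 9.48 CPM in Laminectomy mice 2 and 3, and Slc7a10, at 17.7 to 52.4 CPM in No operation and 5.66 and 4.09 CPM in those mice. In Laminectomy mice 2 and 3 the most abundant was instead the glutamate transporter Slc1a2, at 61.0 and 22.3 CPM against at most 0.899 CPM in the others. Gfap, the astrocyte filament protein, was at 52.7 and 18.1 CPM in Laminectomy mice 2 and 3 and at most 1.60 CPM in the others. Oligodendrocyte markers (10 of 10 detected, Aspa the most abundant) summed to 7.17, 13.5, 12.1 and 12.3 CPM for the 4 No operation mice, 8.20, 2.46, 6.35 and 2.46 CPM in the 4 SHAM mice, and 1.32, 60.1, 15.2 and 2.87 CPM in the 4 Laminectomy mice. In both mice 8 of the 10 were above each of the other 10 mice, while Aspa was higher in every No operation mouse (6.75 to 13.1 CPM) than in Laminectomy mice 2 and 3 (4.52 and 3.63 CPM). Mobp, a protein of central myelin and the most abundant of the list in these mice, was at 22.9 and 5.39 CPM there and at most 0.0666 CPM in the others. The ratio of mouse 2 to mouse 3 was 2.92 for Gfap (2.58 to 3.30) and 4.25 for Mobp (3.42 to 5.31). The part of these cell types in the levels of the members was not tested.

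In the sums of the spinal motor neuron, sensory ganglion and spinal interneuron lists, neither Laminectomy mouse 2 nor mouse 3 had the highest sum of the 12 mice. These sums came largely from a few genes also present in No operation mice. There Chodl was at 35.6 to 89.2 CPM, Ret at 18.2 to 30.8, Avil at 17.6 to 40.9 and Lbx1 at 9.10 to 17.3. The sums therefore say little about markers under 1 CPM, and single genes are given below. Of 8 spinal motor neuron markers, 7 were in the table and detected (Chodl, also present in No operation mice, the most abundant) and summed to 55.7, 59.0, 114 and 90.8 CPM across No operation mice 1 to 4, 13.4, 24.3, 32.9 and 33.4 CPM in SHAM mice 1 to 4, and 12, 41.3, 32.1 and 37.9 CPM in Laminectomy mice 1 to 4. None of the 7 was above the other 10 mice in both Laminectomy mouse 2 and mouse 3, and 2 of the 7 were highest in mouse 2, Lhx4 at 0.360 CPM (at most 0.0562 CPM in the other 10 mice) and Prph at 4.52 CPM (at most 3.13). Lhx3, a defining motor neuron factor, was at 0 in both mice, and Isl1 had 1 count in mouse 2. Sensory ganglion markers (12 of 13 detected, Avil the most abundant, Tlx3 at 0 in all mice) summed to 43.1, 27.6, 28.4 and 52.2 CPM for the 4 No operation mice, 4.95, 7.65, 9.06 and 5.02 CPM in the 4 SHAM mice, and 5.35, 12.2, 12 and 9.38 CPM in the 4 Laminectomy mice. None of the 13 was above the other 10 mice in both mice. In mouse 2 alone, 2 were the highest of the 12, the peptide gene Calca at 0.771 CPM (at most 0.318 CPM in the other 10) and the neurotrophin receptor Ntrk3 at 5.14 CPM (at most 4.42), and in mouse 3 alone 1 was, Prdm12 with 1 count. Scn10a, the sodium channel of pain fibres, was at 0 and 0.104 CPM in Laminectomy mice 2 and 3. Spinal interneuron markers (10 of 10 detected, En1 the most abundant) summed to 23.2, 20.3, 24.8 and 23.6 CPM across No operation mice 1 to 4, 27.9, 21.2, 23.8 and 16.4 CPM in SHAM mice 1 to 4, and 6.04, 12.1, 12.5 and 13.9 CPM in Laminectomy mice 1 to 4. In both mice 4 of the 10, Pax2, Pax8, Lhx1 and Nmu, were above the other 10 mice, all under 1 CPM. Pax2, a factor of inhibitory spinal interneurons, was at 0.668 and 0.259 CPM in Laminectomy mice 2 and 3 and at most 0.0535 CPM elsewhere.

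Further marker lists are given beside the members. Schwann cell markers (11 of 11 detected, Scn7a the most abundant) summed to 193, 255, 196 and 249 CPM for the 4 No operation mice, 291, 162, 291 and 144 CPM in the 4 SHAM mice, and 102, 304, 148 and 179 CPM in the 4 Laminectomy mice. Microglia markers (5 of 5 detected, Tmem119 the most abundant) summed to 60.4, 53.5, 58.4 and 35.7 CPM across No operation mice 1 to 4, 134, 128, 130 and 96.1 CPM in SHAM mice 1 to 4, and 126, 143, 113 and 117 CPM in Laminectomy mice 1 to 4. Chromaffin and neuroendocrine markers (5 of 6 in the table and detected, Chga the most abundant) summed to 2.69, 1.57, 2.73 and 2.45 CPM for the 4 No operation mice, 3.37, 8.18, 7.36 and 8.70 CPM in the 4 SHAM mice, and 3.76, 24.6, 13.7 and 7.61 CPM in the 4 Laminectomy mice. Laminectomy mice 2 and 3 had the highest sums for this list alone of the 3. In both mice 2 of its 5 genes, Chgb and Scg2, were above the other 10 mice. Another 2, Pnmt and Phox2a, were below every No operation mouse. Chga in Laminectomy mouse 3 (4.46 CPM) was below SHAM mice 2, 3 and 4 (6.62 to 7.49 CPM). Mast cell markers (5 of 5 detected, Cpa3 the most abundant) summed to 83.0, 45.2, 39.3 and 54.7 CPM across No operation mice 1 to 4, 64.1, 51.2, 43.4 and 7.90 CPM in SHAM mice 1 to 4, and 1.06, 7.97, 7.41 and 9.38 CPM in Laminectomy mice 1 to 4. Cartilage and bone markers (7 of 7 detected, Ibsp the most abundant) summed to 19.9, 625, 184 and 11 CPM for the 4 No operation mice, 4.72, 130, 129 and 129 CPM in the 4 SHAM mice, and 1980, 2480, 885 and 699 CPM in the 4 Laminectomy mice. All 4 Laminectomy mice were above every other mouse for the sum of cartilage and bone markers, and No operation mouse 2 came next. By single gene, only Ibsp and Acan were higher in each Laminectomy mouse than in every other mouse. Bglap was at 122 CPM in No operation mouse 2 and at 12.3 to 56.6 CPM in Laminectomy. Col2a1, at 188 CPM in No operation mouse 2, was above Laminectomy mice 1, 3 and 4. The part of these marker lists in the levels of the members was not tested.

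Only 18 of the 38 members passed the filter on low counts, because the others had enough counts in fewer than 4 mice, so 20 members, among them Snap25, Cplx1 and the neurofilaments, were not in the test at all. Genes were called where edgeR's quasi-likelihood test, run on 14765 genes, gave a Benjamini-Hochberg p under 0.05 together with a log2 fold change beyond 0.5 in either direction. In SHAM against No operation, 4 members were called higher, beside 25.7% of all tested genes, and 4 lower, beside 25.1%. In Laminectomy against No operation, 8 were called higher, beside 24.2% of all tested genes, and 1 lower, beside 24.4%. The members were chosen with these comparisons known and both comparisons share the No operation mice, so nothing is read from these counts. The median log2 difference over the 18 was 0.02 in SHAM and 0.95 in Laminectomy against No operation, beside 0.00 and 0.01 over all tested genes. For the same 18 without Laminectomy mice 2 and 3 it was 0.20 in Laminectomy, beside -0.01 over all genes, so most of the 0.95 rests on those mice.

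In SHAM against No operation the called members were Syn1, with a log2 fold change of 2.47 (SE 0.52), Gad1 at 2.50 (SE 0.62), Slc5a7 at 2.59 (SE 0.71) and Dlg4 at 1.08 (SE 0.15). Those lower in SHAM were Pclo at -2.87 (SE 0.79), Sv2b at -1.86 (SE 0.71), Stmn2 at -1.41 (SE 0.43) and Vamp2 at -0.57 (SE 0.14). Without No operation mouse 2, which had 11 counts of Slc5a7 against 1 in each of the other 3, its log2 fold change was 4.24. Sv2b was no longer called when No operation mouse 1 (-1.95) or 3 (-1.23) or SHAM mouse 1 (-1.64), 2 (-1.75) or 3 (-1.82) was left out, and Vamp2 when SHAM mouse 4 was (-0.49). Skeletal muscle markers were also lower in every operated mouse, and their part in these differences was not tested. Without Laminectomy mice 2 and 3, which enter through the shared spread, 4 members were higher, beside 24.9% of genes, and 5 lower, beside 24.8%, with Syp the added gene. Without TMM the median log2 difference of all genes was 0.25 in place of 0.00, the genes called went from 25.7% higher and 25.1% lower to 35.1% and 18.1%, and Vamp2 (-0.31) and Sv2b (-1.60) were not called.

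In Laminectomy against No operation, Slc5a7 was higher by 4.12 on the log2 scale (SE 0.71), Gria1 by 2.94 (SE 1.17), Syn1 by 2.73 (SE 0.52) and Gad1 by 2.65 (SE 0.63). Sv2a was higher by 2.33 (SE 0.66), Shank1 by 1.39 (SE 0.33), Bsn by 1.24 (SE 0.43) and Dlg4 by 1.07 (SE 0.15), and Vamp2 changed by -0.67 (SE 0.14). Without Laminectomy mice 2 and 3 the log2 difference was 3.74 for Slc5a7, 2.08 for Syn1, 1.83 for Gad1, 1.28 for Shank1, 1.07 for Dlg4 and -0.71 for Vamp2, all still called. It was 0.38 for Sv2a, 0.73 for Bsn and -0.18 for Gria1, none of them called, while Syp (-1.70) and Pclo (-2.33) were then called lower. In that fit 5 members were higher, beside 22.0% of genes, and 3 lower, beside 23.1%. Slc5a7 was at 5.77 without No operation mouse 2, Sv2a at 1.38 without Laminectomy mouse 2, and Gria1 at 3.86 without No operation mouse 3, all still called. Bsn also lost its call without Laminectomy mouse 2 (1.05) or 3 (1.13) alone, and without No operation mouse 1 (1.05), 3 (1.26) or 4 (0.99). Gria1 lost its call without Laminectomy mouse 2 (2.15) or 3 (2.67) alone, and without No operation mouse 1 (2.71), 2 (2.96) or 4 (2.55). Without Laminectomy mouse 4 alone 13 of 22 tested members were called higher, beside 23.9% of genes, and without mouse 2 alone 2 were called lower, Vamp2 and Stmn2, beside 24.1%. The sum of cartilage and bone markers, though not each marker, was highest in the same 4 mice as Shank1. The part of these markers in the level of Shank1 was not tested. Without TMM the median log2 difference of all genes was 0.33 in place of 0.01, the genes called went from 24.2% higher and 24.4% lower to 37.0% and 15.9%, and Vamp2 (-0.34) was not called. Skeletal muscle markers were lower in the same mice as Vamp2, and their part in its level was not tested.

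**Figure D3:**
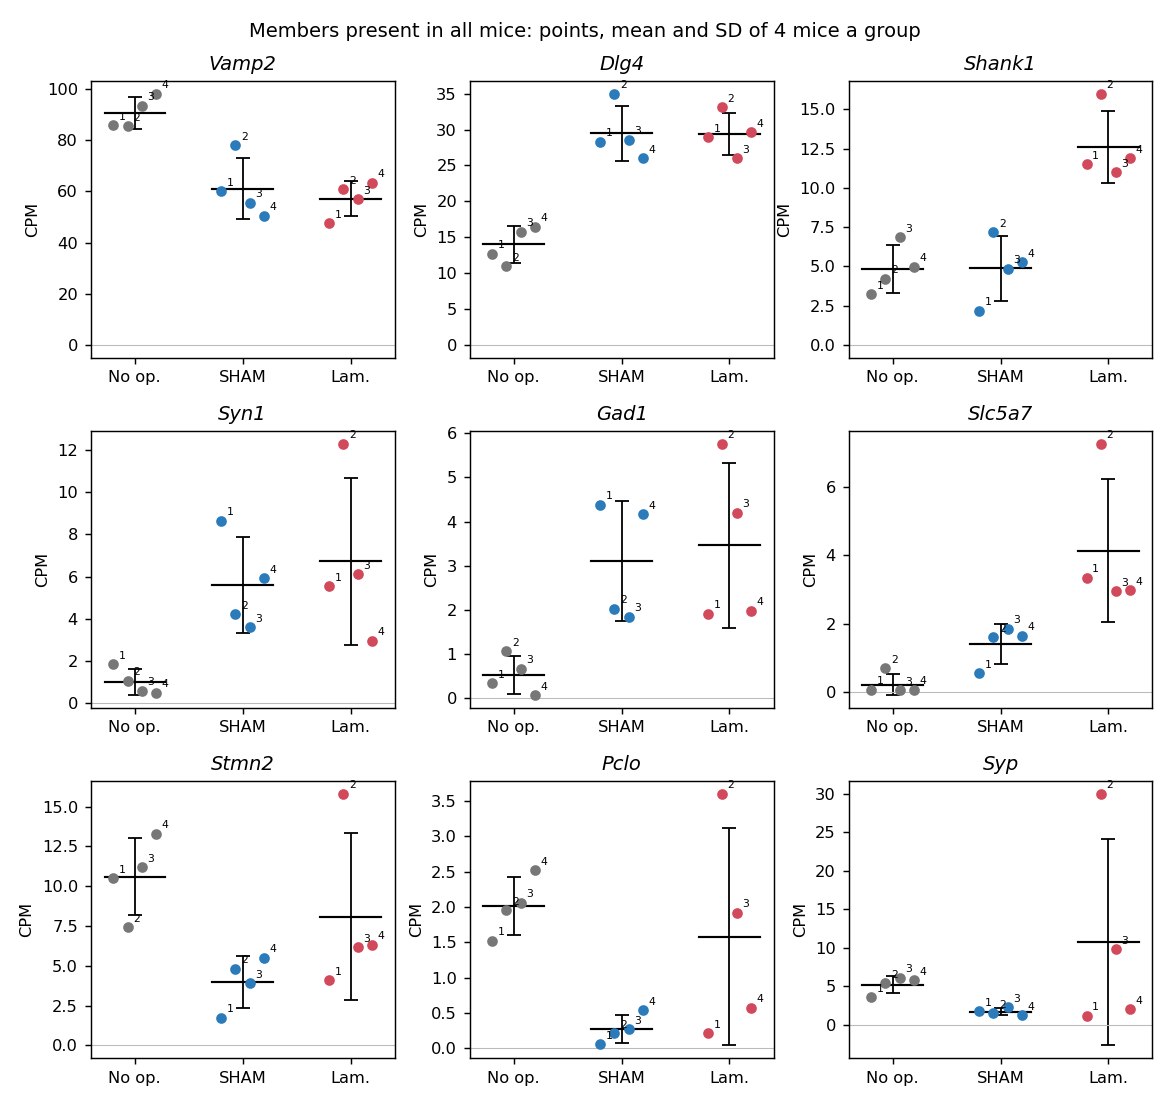
Points are CPM in single mice, numbered by mouse, with the mean and SD of the 4 mice of each group (No op., No operation; Lam., Laminectomy) for 9 members. Dlg4, Syn1 and Gad1 are higher in all operated mice, Vamp2 is lower, Shank1 is higher in Laminectomy only, and Syp is at 30.0 CPM in Laminectomy mouse 2.

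Laminectomy against SHAM compares removal of soft tissue with and without removal of the lamina. The sum of cartilage and bone markers also differed, at 699 to 2480 CPM in Laminectomy and 4.72 to 130 CPM in SHAM. Removal of the lamina and a difference in the tissue taken therefore cannot be told apart here. No member was called by edgeR in either direction, and 0% of the 14765 genes were, with 2359 genes at an unadjusted p below 0.05. DESeq2 called 12 of 35 tested members higher, beside 2.11% of genes, and 0 lower, beside 2.24%. The 12 were Snap25, Cplx1, Syp, Sv2a, Rims1, Pclo, Gria2, Grin1, Shank1, Nefl, Nefm and Nefh. Each of these was highest in Laminectomy mice 2 and 3, except Shank1, which was high in all 4 Laminectomy mice, and Pclo, for which Laminectomy mouse 3 lay within the No operation range. Without those mice edgeR called 0 members and 0% of genes, as it did with all mice, so this says nothing about the DESeq2 calls. DESeq2 was not run without those mice. The log2 difference of Shank1 was 1.37 (SE 0.32) with all mice and 1.26 without mice 2 and 3, and neither was called.

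Of 131 other synaptic and neuronal genes from the same machinery, 79 were tested. In SHAM 22 (27.8%) were called higher than in No operation, beside 25.7% of all tested genes, and 25 (31.6%) lower, beside 25.1%. In Laminectomy 29 (36.7%) were higher, beside 24.2%, and 13 (16.5%) lower, beside 24.4%, while edgeR called 0 between the operated groups. DESeq2 called 20 of 121 higher in Laminectomy than in SHAM, beside 2.11% of genes, and 0 lower, beside 2.24%. With Laminectomy mice 2 and 3 left out, Laminectomy had 20 (25.3%) called higher, beside 22.0%, and 23 (29.1%) lower, beside 23.1%, against No operation. These lists were chosen with the comparisons known, so nothing is read from the shares. The adjusted p-values given for these genes come from the same edgeR fit over all tested genes.

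Among the genes named as lower in both operated groups, Camk2a, a calcium-dependent kinase, was at 324, 406, 467 and 573 CPM across No operation mice 1 to 4, 12, 38.4, 36.4 and 42.9 CPM in SHAM mice 1 to 4, and 27.9, 60.4, 52.8 and 52.9 CPM in Laminectomy mice 1 to 4. Every operated mouse was far below every No operation mouse. The skeletal muscle markers fell in the same mice, from a mean sum of 121000 ± 18500 CPM (SD, n = 4) in No operation to 7160 ± 3410 CPM (SD, n = 4) in SHAM and 10200 ± 4820 CPM (SD, n = 4) in Laminectomy, with 11 of 11 called lower in both, and their part in the lower levels of Camk2a and the other genes of this paragraph was not tested. The fitted log2 fold change of Camk2a was -3.77 in SHAM (SE 0.39, edgeR adjusted p = 1.70e-05) and -3.19 in Laminectomy (SE 0.38, edgeR adjusted p = 4.90e-05). For Homer2, a postsynaptic scaffold, it was -3.31 in SHAM and -3.01 in Laminectomy. For Mapt, the microtubule protein tau, it was -3.72 and -2.82, and for Gphn, the scaffold gephyrin, -1.57 and -1.44. For Cntnap2, an axonal adhesion protein, it was -5.61 and -2.61. The synaptotagmins Syt7 (-2.21 and -1.49) and Syt3 (-2.24 and -1.42) were also lower in both. In SHAM alone the naming rule added Snph, a syntaxin-binding protein (-2.06), the glycine transporter Slc6a9 (-1.09), the vesicular monoamine transporter Slc18a2 (-0.65) and the stathmin Stmn4 (-1.56), and in Laminectomy the calcium channel subunit Cacnb4 (-1.38). Snph in SHAM lost its call without No operation mouse 3 (-1.82) or SHAM mouse 1 (-1.95), 2 (-1.96) or 4 (-1.99). Slc18a2 in SHAM lost its call without No operation mouse 2 (-0.60), 3 (-0.66) or 4 (-0.66) or SHAM mouse 1 (-0.51) or 4 (-0.57). Stmn4 in SHAM lost its call without No operation mouse 3 (-1.51) or 4 (-1.27) or SHAM mouse 1 (-1.67), 3 (-1.37) or 4 (-1.37). Syt3 in Laminectomy lost its call without No operation mouse 2 (-1.44), 3 (-1.37) or 4 (-1.33) or Laminectomy mouse 1 (-1.09), 3 (-1.29) or 4 (-1.43). Without TMM, Slc18a2 (-0.39), Snph (-1.80) and Stmn4 (-1.29) in SHAM and Syt3 in Laminectomy (-1.09) were not called. With Laminectomy mice 2 and 3 left out, the log2 fold change in Laminectomy was -4.28 for Cntnap2, -4.23 for Mapt, -2.19 for Syt7, -2.09 for Syt3 and -2.05 for Cacnb4, all still called. Leaving out mouse 2 alone gave -3.57 for Cntnap2 and -2.02 for Syt3.

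Among those named as higher in both operated groups, Tubb3, the neuronal beta tubulin, was at 4.14, 0.630, 0.799 and 1.61 CPM for the 4 No operation mice, 9.89, 8.13, 10.9 and 11.6 CPM in the 4 SHAM mice, and 13.1, 21.8, 10.2 and 9.96 CPM in the 4 Laminectomy mice. Every operated mouse was above every No operation mouse. The macrophage markers rose in the same mice, from a mean sum of 1020 ± 398 CPM (SD, n = 4) in No operation to 5070 ± 1310 CPM (SD, n = 4) in SHAM and 3720 ± 982 CPM (SD, n = 4) in Laminectomy, with 6 of 6 called higher in both, and their part in the higher levels of these genes was not tested. The fitted log2 fold change of Tubb3 was 2.50 in SHAM (SE 0.50, edgeR adjusted p = 0.00120) and 2.94 in Laminectomy (SE 0.51, edgeR adjusted p = 4.96e-04). For Ddc, an enzyme of dopamine and serotonin synthesis, it was 2.52 and 3.02, and for Nsg1, a neuronal endosome protein, 1.88 and 2.23. For Nlgn2, an adhesion protein of inhibitory synapses, it was 1.5 and 1.19. The active zone genes Rims3 (1.51 and 2.09) and Ppfia3 (1.33 and 2.33) and the scaffold gene Dlg2 (0.94 and 1.77) were also higher in both. In SHAM the naming rule added the glutamate transporter Slc17a8 (2.54), the growth cone protein Gap43 (1.74), the calcium channel Cacna1b (1.43), the receptor subunits Gria3 (1.25) and Grin2d (1.09) and the scaffold Homer3 (1.15). In Laminectomy it added the endocytic protein Snap91 (2.92), the receptor subunits Grin2a (2.72) and Glrb (1.83) and the enolase Eno2 (1.98).

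Without Laminectomy mice 2 and 3 the log2 difference of Laminectomy from No operation was 0.70 for Snap91, 2.10 for Grin2a and 0.21 for Glrb, and none of these was called. It was 1.07 for Rims3, 1.69 for Ppfia3, 1.10 for Dlg2 and 1.29 for Eno2, all still called. Snap91 was at 2.05 without Laminectomy mouse 2 alone. Without No operation mouse 1, Tubb3 was at 3.32 in SHAM and 3.76 in Laminectomy, and without SHAM mouse 1 Slc17a8 was at 1.85. Ppfia3 in SHAM lost its call without No operation mouse 2 (1.27), 3 (1.43) or 4 (1.03) or SHAM mouse 1 (1.12) or 2 (1.29). Dlg2 in SHAM lost its call without No operation mouse 1 (0.83), 3 (0.90) or 4 (0.87) or SHAM mouse 2 (0.87) or 4 (0.88). Glrb in Laminectomy lost its call without No operation mouse 1 (1.69) or Laminectomy mouse 2 (0.93).

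The 10 genes outside the list whose log2 CPM was most like the log2 of the summed member level were Efnb3, Map7d2, Kif5a, Slc6a11, Mapk8ip2, Tspyl4, Mobp, Glrb, Kndc1 and Scn8a. Pearson's r ran from 0.927 to 0.965 over 12 mice, among 14036 genes at a mean of 1 CPM or more. Over the 10 mice other than Laminectomy mice 2 and 3 it was 0.880 for Map7d2, 0.793 for Slc6a11, 0.634 for Efnb3, 0.596 for Mapk8ip2 and 0.505 for Kif5a. For the other 5 it ran from -0.312 to 0.303, so their likeness rests on those libraries. In the 10 mice Slc6a11 was at most 0.350 CPM, Mapk8ip2 at most 0.482 and Map7d2 at most 0.701, which is a few counts. Vamp2 made up 32.4% to 55.3% of the summed level there, so r over the 10 mice says little about the other members. Kif5a, a motor of axonal transport, was at 69.6 and 28.1 CPM in Laminectomy mice 2 and 3 and between 4.39 and 9.74 CPM in the others.

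Promoter sequences from RefSeq (build GRCm38.p6, 250 bases before to 50 after the start of the gene) were matched for 27 of the 38 members. Many neuronal genes carry a site for the repressor REST, so the letters AGCACCNNGGACAG, a core of that site, were searched on both strands; these letters were settled on after other forms of the site had been tried. They were in the promoters of 16 of 27025 genes, or 0.0592%, among them 2 of the 27 members, Gad2 and Gria2. The other members with a promoter sequence had no match. The members were chosen on measured values and the letters after other forms, so nothing is read from these counts. A match is a description of letters and not a measured site. The promoters of Gad2 and Gria2 are printed because they hold the match, in lower case with the match in capitals, on the strand of the gene. That of Gad2 lies at chr2:22622077-22622376 on the + strand. That of Gria2 lies at chr3:80802786-80803085 on the - strand, where the match reads on the other strand.
Gad2: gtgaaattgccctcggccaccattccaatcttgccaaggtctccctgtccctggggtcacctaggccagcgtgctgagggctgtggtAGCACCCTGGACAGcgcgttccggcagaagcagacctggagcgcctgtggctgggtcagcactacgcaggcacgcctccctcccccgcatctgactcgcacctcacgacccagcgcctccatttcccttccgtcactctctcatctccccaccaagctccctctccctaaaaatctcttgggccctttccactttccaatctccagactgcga
Gria2: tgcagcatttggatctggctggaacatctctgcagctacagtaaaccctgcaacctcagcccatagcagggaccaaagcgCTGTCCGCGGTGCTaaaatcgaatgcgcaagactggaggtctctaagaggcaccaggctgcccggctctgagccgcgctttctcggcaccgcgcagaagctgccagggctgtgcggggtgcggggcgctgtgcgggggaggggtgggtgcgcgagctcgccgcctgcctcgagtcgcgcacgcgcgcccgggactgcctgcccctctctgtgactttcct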

How the data were processed

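RNA of 12 mice was sequenced (RNeasy extraction, TruSeq stranded mRNA libraries), and per the labels the authors aligned reads with STAR 2.6.1b to mm10 (GRCm38), counted genes with featureCounts 2.0.1 and used DESeq2 1.30.1. The authors deposited estimated counts per gene, of which 10.2% were not whole, so expected counts were rounded before testing. The members and gene lists were chosen with earlier results of these data known. Groups came from sample titles; all 4 deposited mice per group were used, although the study took on 3 per group without naming which, so whether Laminectomy mice 2 and 3 were among them is not known here. Counts of all 12 mice were fitted with edgeR 4.0.16 in R 4.3.3 (filterByExpr, TMM, quasi-likelihood test), which was tested on simulated data. The first check, on the share of changed genes recovered, was not met by edgeR in Laminectomy against SHAM. All changes missed there were of the smaller simulated size, and the check was then set on the larger size and on direction. Small differences between the operated groups can therefore go uncalled. DESeq2 1.42.0, library sizes without TMM, other filters and thresholds, a replicate block and leaving out mice were tried as alternatives, and leaving out Laminectomy mice 2 and 3 was added after seeing the data. CPM used unrounded counts. Members with a mean of at least 1 CPM in a group are given in every mouse and the others by range; of the other lists, up to 3 called genes per list and direction with the largest log2 fold change and a mean of at least 1 CPM in the higher group are named, and some of these genes and 1 marker list are not reported here. Exon lengths came from GENCODE, release M21. Mice are separate animals per the labels. Intervals and floors cover counting error only.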

Additional observations from a re-analysis of the deposited data

Results flagged for a closer look

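Within the groups of 4 mice, 108 sets of values reaching 1 CPM (members given in every mouse, marker sums and the summed members) were examined for a mouse far from the others, and 11 had a gap, as a share of the group's range, past Dixon's 95% limit. Chance flags about 1 in 20 independent sets of normal values. These sets overlap, and the members were chosen on these same values, so nothing is read from the count.

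Laminectomy mouse 2 was far above the rest of its group for Nefl (gap 0.837 of the range, 63.8 CPM against at most 10.4), Nefm (0.889, 65.0 CPM against at most 7.46) and Nefh (0.905, 41.3 CPM against at most 4.14). It was also far above for Slc5a7 (0.911, 7.25 CPM against at most 3.34) and Shank1 (0.830, 16.0 CPM against at most 11.9). Laminectomy mouse 4 was high for Stx1a (0.864, 9.07 CPM against at most 6.22). SHAM mouse 1 was high for Syt4 (0.945, 2.08 CPM against at most 0.267), and SHAM mouse 2 for the summed members (0.889, 181 CPM against at most 143). Among marker sums, SHAM mouse 3 was high for astrocyte markers (0.863, 63.7 CPM against at most 20), SHAM mouse 4 low for microglia markers (0.841, 96.1 CPM against at least 128) and SHAM mouse 1 low for cartilage and bone markers (0.989, 4.72 CPM against at least 129). Causes were not tested. For Nefl, Nefm and Nefh, Laminectomy mouse 3 was also above the other 10 mice, though far below mouse 2. For Snap25, at 63.1 and 23.7 CPM in Laminectomy mice 2 and 3, the gap within the group did not single out either of them.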

How the results depend on the processing

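The counts of called members depended on the filter and the tool. In SHAM against No operation, the 4 higher of 18 tested members became 7 of 37 with DESeq2 (23.7% of all genes) and 2 of 12 with at least 10 counts in every mouse (25.4%), and the 4 lower became 2 without TMM (18.1%) and 2 with that filter (25.6%). In Laminectomy against No operation, the 8 higher of 18 became 22 of 37 with DESeq2 (23.3% of all genes), 19 of 38 with no filter (20.5%), 4 of 12 with at least 10 counts in every mouse (23.8%) and 5 of 19 without Laminectomy mice 2 and 3 (22.0%), an alternative chosen after seeing the data. The 1 lower member became 0 without TMM (15.9%), 0 above a log2 fold change of 1 (14.7%) and 3 without mice 2 and 3 (23.1%). In Laminectomy against SHAM, 0 higher of 18 tested members became 12 of 35 with DESeq2 (2.11%), where the tool and the tested set both changed. With edgeR and no filter it was 0 of 38 (0%). Leaving out 1 mouse at a time gave 4 to 6 higher members (23.4% to 26.3% of all genes) and 3 to 4 lower (23.3% to 25.0%) in SHAM, 6 to 13 (21.7% to 25.1%) and 1 to 2 (22.0% to 24.7%) in Laminectomy against No operation, and 0 throughout (0% of genes) in Laminectomy against SHAM. With the replicate block, the counts were 4 and 3 (25.5% and 24.9% of all genes), 9 and 1 (24.2% and 24.3%), and 0 and 0 (0% of genes) in these comparisons, and Sv2b in SHAM (-1.79) and Glrb in Laminectomy (1.5) were not called. Same-numbered mice were not treated as pairs, since the labels do not pair them and not every correlation of their deviations from group means was over 0.1; it ran from 0.131 to 0.195 for number 1, from -0.164 to 0.069 for number 2, from 0.148 to 0.333 for number 3 and from -0.228 to 0.352 for number 4, and 6 of 12 mice correlated best with their own number. Among other synaptic genes, DESeq2 called 48 of 129 higher in Laminectomy than in No operation (23.3% of all genes) and 20 than in SHAM (2.11%), and 23 of 79 were lower than in No operation without mice 2 and 3 (23.1%). Of 279 alternative values for 17 member fold changes, 252 kept direction and call, 26 lost the call and 1 turned, Gria1 at -0.18 without mice 2 and 3; of 714 for the 43 fold changes of other genes given here, 671 kept both and 43 lost the call. With no filter Gria1 in Laminectomy (2.93) and Ppfia3 in SHAM (1.33) were not called, nor was Bsn (1.24) when only the compared groups were fitted. With a mouse left out, the ratio of summed member means against No operation ran from 0.842 to 0.929 for SHAM and from 1.16 to 2.07 for Laminectomy, and that of Laminectomy against SHAM from 1.28 to 2.29. The SHAM ratio turned to 1.08 without TMM and 1.17 without Vamp2. For Laminectomy it was 3.12 without Vamp2, and without mice 2 and 3 it was 0.936 with TMM and Vamp2, 1.17 without TMM and 1.32 without Vamp2; against SHAM these were 1.04, 1.08 and 1.12. Without TMM, summed member CPM was 132, 152, 151 and 151 in No operation mice 1 to 4, 140, 197, 151 and 145 in SHAM mice 1 to 4, and 154, 656, 296 and 189 in Laminectomy mice 1 to 4. Without Vamp2 it was 69.3, 76.8, 81.2 and 80.0 in No operation, 82.2, 103, 87.3 and 87.5 in SHAM, and 99.3, 545, 210 and 103 in Laminectomy, so every SHAM mouse was then above every No operation mouse. Other causes of these shifts were not tested. With 2 Laminectomy mice left, a missed call says little, and members at a few counts are limited by depth.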
